A study of Homo sapiens with 60 samples.

Results

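The spliceosomal small nuclear RNAs (snRNAs) described here are 9 gene rows, chosen by name from 60590 gene rows of read counts. RNU4-1 and RNU4-2 encode U4 RNA, RNU5A-1 and RNU5B-1 encode U5 RNA, and RNU2-2P is a U2 gene, all of the major spliceosome. RNU11, RNU12, RNU4ATAC and RNU6ATAC encode the U11, U12, U4atac and U6atac RNAs of the minor spliceosome. U5 RNA serves both machines and is counted with the major one. The counts came from human embryonic kidney cells (the Flp-In HEK293 line) that stably expressed FLAG-tagged fusions of APEX2, a peroxidase that tags nearby RNA with biotin. The fusions carried SRSF7, SRSF1 and RNPS1 (nuclear speckle proteins), SAM68 (a nuclear RNA-binding protein), PML and SP100 (PML bodies), SMN2 and WRAP53 (gems and Cajal bodies), NPAT (histone locus bodies), FBL (nucleolus) or LMNA (nuclear lamina), and the references were NLS (a nuclear localisation signal), GFP and FLAG. All groups, references included, were treated alike, with biotin-phenol (500 µM, 30 minutes) followed by peroxide (1 mM, 1 minute). Each of the 14 constructs had 2 libraries of RNA pulled down on streptavidin and 2 of the RNA before pulldown (input), which gave 56 ribosome-depleted libraries in 28 groups. For SRSF7, pulldown RNA was also sequenced in 4 libraries of a separate table, 2 made by poly(A) selection and 2 by ribosome depletion. Nothing in the labels says whether the 2 replicates of a group came from separate cultures, and the p-values therefore rest on a spread among libraries that may be technical.

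As background, snRNAs are short, abundant RNAs that pair with the intron and with each other inside the spliceosome. Most of them receive a ring of Sm proteins from the SMN complex in the cytoplasm and then pass through Cajal bodies. There, small Cajal body RNAs guide chemical changes of snRNA nucleotides, and the U4, U5 and U6 particles join. SMN is the core of that complex and of gems, and WRAP53 brings small Cajal body RNAs to Cajal bodies. In the minor spliceosome, which removes a rare class of introns, U11 and U12 recognise the intron and U4atac and U6atac take the places of U4 and U6.

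Total counts were 14038645 to 56256915 in the inputs and 19280434 to 42097988 in the pulldowns. The libraries fell into 3 sets that the labels do not name, by the counts of ribosomal protein pseudogenes. Set I (RPS14P8 at 100 counts or more) was the 16 inputs of SMN2, WRAP53, RNPS1, SAM68, SP100, FBL, NPAT and GFP, set III (RPS3AP21 at 1 count or none) was the GFP and LMNA pulldowns, and set II was the other 12 inputs and 24 pulldowns. Replicate 1 of the FBL inputs and replicate 1 of the NPAT inputs also stood apart from their partners. WRAP53 mRNA had a mean of 1237 CPM (the usual depth-scaled count, after scaling between libraries) in its own inputs against a median of 38.1 CPM in the others, and SMN2 mRNA, whose reads are hard to separate from those of its near-copy SMN1, had 22.3 against 7.16 CPM. The HEK293 markers PAX2, NEFM, INA, CDH2 and VIM summed to 748 to 1509 CPM in the inputs, with NEFM low at a median of 0.377 CPM, and markers of other cell types summed to 0.0275 to 2.90 CPM.

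Of the 9 genes, 6 carried reads, and these 6 passed the filter on low counts. RNU11 passed it through inputs of set II alone. RNU2-2P, RNU12 and RNU4ATAC were listed at 0 in all 56 libraries and in the 4 of the second table. In RefSeq's GRCh38.p14 annotation RNU2-2P (RefSeq's RNU2-2, 191 bases, chr11:62841619-62841809) lies in the span of WDR74, RNU4ATAC (130 bases, chr2:121530880-121531009) lies in that of CLASP1 and CLASP1-AS1, and RNU12 (150 bases, chr22:42615244-42615393) overlaps no other gene. WDR74 and CLASP1 themselves were well counted, with input medians of 42.5 and 131 CPM. All 24 rows of small Cajal body RNAs, the guides that WRAP53 binds, were also listed at 0 in every library.

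RNU4-1 (145 bases, chr12:120293093-120293237) and RNU4-2 (145 bases, chr12:120291759-120291903) both lie in the span of SIRT4. RNU5A-1 (117 bases, chr15:65296051-65296167) and RNU5B-1 (117 bases, chr15:65304677-65304793) overlap no other gene. RNU11 (135 bases, chr1:28648600-28648734) overlaps TAF12-DT, and RNU6ATAC (chr9:134164439-134164564) overlaps LOC124902297. The U4 genes are near-copies of each other, as are the U5 genes, so how reads were split within each pair is uncertain. Whether counting used the strand is not given in the sources used here, so reads of overlapping genes cannot be told apart.

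U4 RNA was the best counted member. Scaled to gene length, RNU4-2 had a median of 237 CPM per kilobase over the 28 inputs and RNU4-1 had 130, against 23.4 for RNU5B-1, 17.2 for RNU5A-1, 3.38 for RNU6ATAC and 1.56 for RNU11. Over the 28 pulldowns the medians were 63.8 CPM per kilobase for RNU4-2, 31.1 for RNU4-1, 7.66 for RNU5A-1, 5.57 for RNU5B-1, 2.47 for RNU6ATAC and 0.547 for RNU11. U4 thus stood above U5, and U5 above the minor RNAs, in both fractions. All members together made up 26.5 to 181 ppm of the counts of an input library and 8.21 to 24.7 ppm of those of a pulldown library. Input levels differed between the library sets: the median of RNU5A-1 was 1.78 CPM in set I and 4.56 CPM in set II, that of RNU6ATAC was 0.314 and 1.09 CPM, and that of RNU4-2 was 25.2 and 40.9 CPM.

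**Figure D1:**
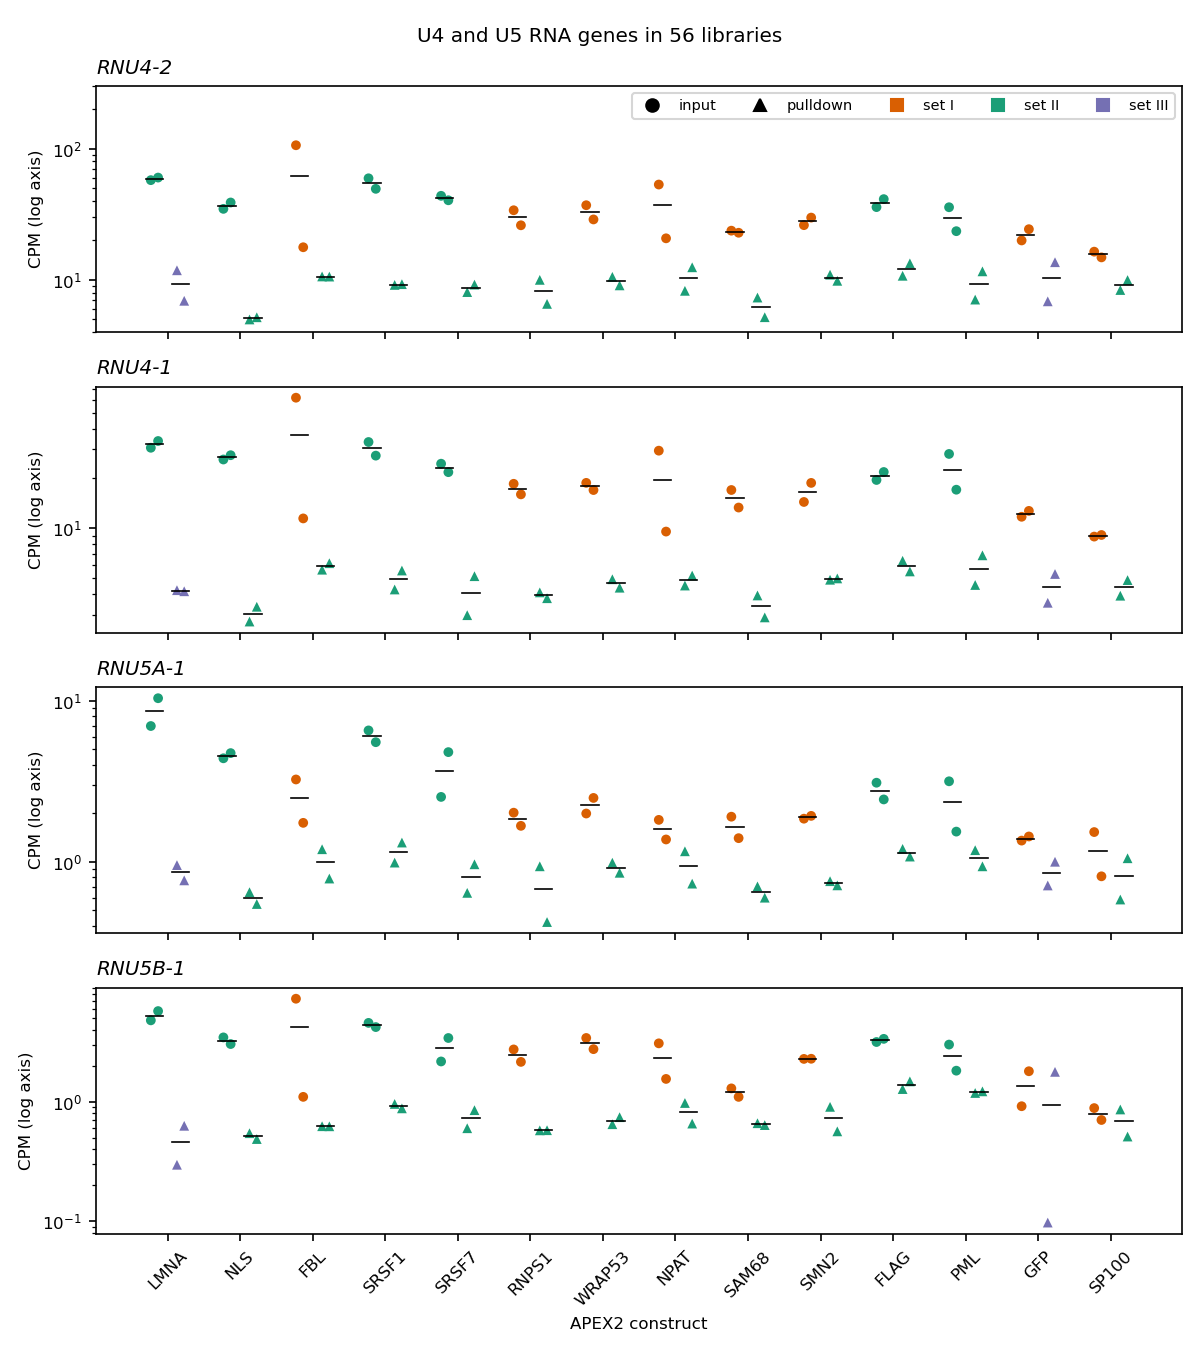
Level of each U4 and U5 gene (CPM, log axis) in every library, by APEX2 construct; circles are inputs, triangles pulldowns, colours the library sets and black lines the mean of the 2 libraries of a group. RNU4-1 and RNU4-2 pulldowns lay below the inputs of the same construct in all 14 constructs, a weak description with 2 libraries on each side. The share of all genes that lay so was not counted. The FBL inputs of RNU4-2, at 106 and 17.7 CPM, lay far apart.

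U4 and U5 RNAs were lower in the pulldown than in the matching input for most constructs, SMN2 and WRAP53 included. Of 84 pairs of gene and construct, 51 fell and 0 rose by edgeR's quasi-likelihood test (Benjamini-Hochberg adjusted p under 0.05 over 23681 genes), and 75 estimates were below 0. At an unadjusted p under 0.05, 1 pair was higher, and DESeq2 called 0 higher of the 79 pairs to which it gave an adjusted p. RNU4-1 and RNU4-2 each fell in 13 of 14 constructs, RNU5A-1 in 11, RNU5B-1 in 8, RNU11 in 4 and RNU6ATAC in 2. Over all genes the share called lower was 19.8% for SRSF7, 22.5% for SRSF1, 17.9% for RNPS1, 22% for SAM68, 15.1% for PML, 16.5% for SP100, 23.4% for NPAT, 20.8% for FBL, 27.6% for LMNA, 10.5% for SMN2, 9.18% for WRAP53, 14.4% for NLS, 27% for GFP and 9.16% for FLAG. In 9 constructs the fractions lie in different library sets, so that fraction and set cannot be told apart: SMN2, WRAP53, RNPS1, SAM68, SP100, NPAT and FBL set pulldowns of set II against inputs of set I, GFP set III against set I, and LMNA set III against set II. In the other 5 (SRSF7, SRSF1, PML, NLS and FLAG), which lie in set II throughout and were also fitted alone, 27 of 30 pairs were called lower. The share of all genes called lower in that separate fit was not counted. The shares above are those of the fit of all libraries. Fewer labelled copies and poorer recovery of an RNA from the beads cannot be told apart in these counts.

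RNU4-1, one of the U4 genes, had a median log2 difference of -2.06 over the 14 constructs. Its NLS inputs had 26 and 27.6 CPM and its NLS pulldowns 2.72 and 3.34 CPM, the lowest log2 difference at -3.15 ± 0.43 (SE; edgeR adjusted p = 5.28e-07). SP100 inputs had 8.89 and 9.09 CPM and SP100 pulldowns 3.90 and 4.85 CPM, the highest log2 difference at -1.04 ± 0.43, which was not called (edgeR adjusted p = 0.0639). The pulldowns lay below the inputs without overlap in all 14 constructs, and SP100 had the lowest inputs of all. With 2 libraries on each side such a separation is a weak description, and its share over all genes was not counted.

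RNU4-2, the more abundant U4 gene, had a median log2 difference of -1.84. Its NLS inputs had 34.8 and 38.9 CPM and its NLS pulldowns 5.00 and 5.20 CPM, with a log2 difference of -2.85 ± 0.46 (edgeR adjusted p = 1.43e-05). For the speckle protein SRSF1 the inputs had 59.5 and 49.4 CPM and the pulldowns 9.17 and 9.29 CPM. For SP100 the inputs had 16.4 and 14.9 CPM and the pulldowns 8.38 and 9.98 CPM, and the log2 difference of -0.77 ± 0.45 was not called (edgeR adjusted p = 0.206). As for RNU4-1, the fractions did not overlap in any of the 14 constructs, again with no share over all genes beside it.

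The U5 genes, whose RNA sits at the centre of both spliceosomes, fell in fewer constructs. In LMNA the RNU5A-1 inputs had 6.97 and 10.4 CPM and the pulldowns 0.954 and 0.767 CPM, its lowest log2 difference at -3.32 ± 0.36 (edgeR adjusted p = 1.09e-09). RNU5B-1 in LMNA went from 4.79 and 5.73 CPM to 0.296 and 0.628 CPM (-3.51 ± 0.59, edgeR adjusted p = 4.03e-06). In SP100 RNU5A-1 had 1.53 and 0.813 CPM in inputs and 0.584 and 1.05 CPM in pulldowns, which overlapped, and in GFP the RNU5B-1 pulldowns had 0.0973 and 1.77 CPM against inputs of 0.916 and 1.80 CPM, which also overlapped. The median log2 difference was -1.33 for RNU5A-1 and -1.79 for RNU5B-1, and the fractions did not overlap in 13 and 12 constructs. The share of all genes without overlap was not counted here either.

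**Figure D2:**
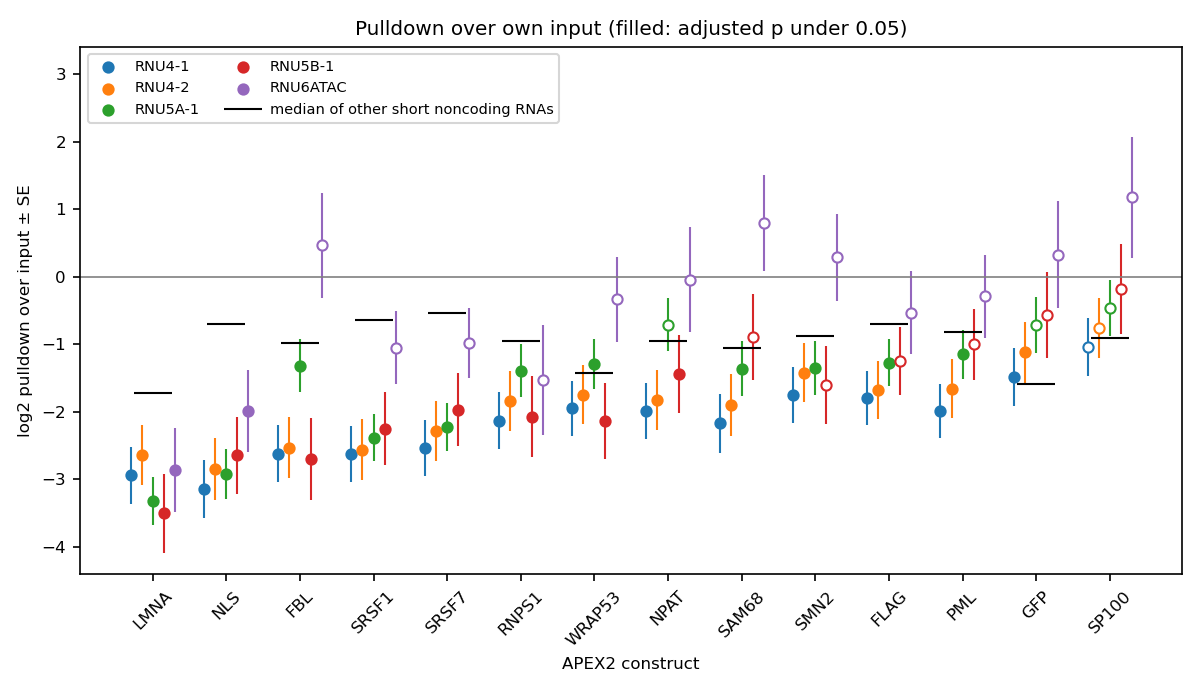
Log2 difference of pulldown over own input (vertical axis, edgeR estimate, bars ± SE) for the U4 and U5 genes and RNU6ATAC in each APEX2 construct; filled points have an adjusted p under 0.05 and black dashes are the median of 55 other short noncoding RNA genes. The median of the U4 and U5 genes runs from -3.13 in LMNA to -0.62 in SP100, and no point above 0 is filled.

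The order of constructs by the median U4 and U5 difference ran from LMNA (-3.13), NLS (-2.88), FBL (-2.58), SRSF1 (-2.47), SRSF7 (-2.25) and RNPS1 (-1.96) through WRAP53 (-1.85), NPAT (-1.64), SAM68 (-1.63) and SMN2 (-1.52) to FLAG (-1.48), PML (-1.41), GFP (-0.92) and SP100 (-0.62). SMN2 and WRAP53 stood in the middle of it. No neighbouring constructs differed by more than 1.56 of their combined SE for any of the 6 members, the largest such step being that of RNU5A-1 between SRSF7 and RNPS1. The inputs differed more between constructs than the pulldowns did. Group means of RNU4-1 spanned 4.06-fold over the inputs, from 8.99 CPM in SP100 to 36.5 CPM in FBL, and 1.95-fold over the pulldowns, from 3.03 CPM in NLS to 5.91 CPM in FLAG. The same spans were 3.96-fold and 2.37-fold for RNU4-2, 7.40-fold and 1.93-fold for RNU5A-1, and 6.63-fold and 2.98-fold for RNU5B-1.

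The size of the U4 values in FBL and NPAT depended on 1 input library each. RNU4-2 had 106 and 17.7 CPM in the FBL inputs and 10.6 CPM in both pulldowns, and 53.3 and 20.8 CPM in the NPAT inputs against 8.27 and 12.5 CPM in the pulldowns. Without the higher inputs its log2 difference went from -2.53 to -0.69 ± 0.32 in FBL and from -1.83 to -0.95 ± 0.31 in NPAT. RNU4-1 went from -2.62 to -0.91 in FBL and from -1.99 to -0.92 in NPAT, and was at -0.92 ± 0.23 in SP100. That fit leaves FBL and NPAT with 1 input library each, so no calls are given from it.

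Other short noncoding RNAs were lower in pulldowns too. The 55 tested genes under 500 bases, of which 16 are other snRNA rows, had medians from -1.73 in LMNA to -0.53 in SRSF7, while the median over all genes lay between -0.01 and 0.28. The U4 and U5 median was below theirs in 12 of 14 constructs, by most in NLS (-2.19), and above it in GFP (0.67) and SP100 (0.29). The 27 other tested snRNA rows had medians from -2.12 in LMNA to -0.77 in FLAG. What RNA length contributed was not tested. Over the 14 constructs the differences of RNU4-1 and RNU4-2 correlated at r = 0.988 and the other pairs of U4 and U5 genes at 0.811 to 0.878, RNU6ATAC correlated with them at 0.69 to 0.85, and RNU11, with its few reads, at -0.08 to 0.17. These genes were counted in the same libraries, and the correlations are given as a description.

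The gem and Cajal body constructs were compared with the other bodies because snRNAs mature at the sites that SMN and WRAP53 mark. For U4 and U5 no difference was detected. In SMN2, RNU4-2 had 26.1 and 29.9 CPM in inputs and 11 and 9.85 CPM in pulldowns, and RNU4-1 had 14.4 and 18.8 CPM against 4.87 and 4.96 CPM. In WRAP53, RNU4-2 had 37.1 and 28.9 CPM in inputs and 10.6 and 9.09 CPM in pulldowns, and RNU5A-1 had 2.00 and 2.49 CPM against 0.988 and 0.855 CPM. The pulldowns lay below the inputs here as in other constructs. The pulldown-over-input difference of SMN2 and WRAP53 minus that of the 9 other body constructs was 0.38 ± 0.32 for RNU4-1, 0.42 ± 0.34 for RNU4-2, 0.27 ± 0.30 for RNU5A-1 and -0.09 ± 0.45 for RNU5B-1, with edgeR adjusted p of 0.441, 0.416, 0.579 and 0.969. None of these 4 genes reached an unadjusted p under 0.05 in edgeR and DESeq2 called 0, whereas 12.5% of all genes were called higher and 12.5% lower. With no filter on low counts RNU4-2 was called higher (0.43 ± 0.14, edgeR adjusted p = 0.0160), and without the odd FBL and NPAT inputs it was at 0.03 ± 0.20.

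RNU11, which encodes the U11 RNA that recognises the start of minor introns, was the only member called higher for SMN2 and WRAP53, and it had few reads. Each of the 4 inputs of SMN2 and WRAP53 held 1 read, the SMN2 pulldowns held 5 and 3, and the WRAP53 pulldowns 1 and 4. Over all constructs set I inputs held 0 to 6 reads, set II inputs 8 to 21 and pulldowns 0 to 7, so the pulldowns of SMN2 and WRAP53 lay within the range of the others and their inputs were near the bottom of set I. The fitted difference from the 9 body constructs was 2.55 ± 0.88 (edgeR adjusted p = 0.0301). Summed over libraries, the ratio of pulldown to input was 2.71 (95% exact interval 0.837 to 11.4, counting error only) for SMN2 and WRAP53, from 13 and 4 reads, and 0.302 (0.210 to 0.425) for the other 9.

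Within the library sets the RNU11 difference was smaller and was not called. RNPS1, SAM68, SP100, NPAT and FBL had their inputs and pulldowns in the same sets as SMN2 and WRAP53, and their summed ratio was 0.742 (0.423 to 1.29). Against these 5 the fitted difference was 1.56 ± 0.97 (edgeR adjusted p = 0.323). Between pulldowns alone, in set II, it was 0.48 ± 0.55 (edgeR adjusted p = 0.530), and between inputs alone, in set I, it was -1.31 ± 0.77 (edgeR adjusted p = 0.351). The call was also lost, by edgeR's adjusted p, without SMN2 input 1 (0.0827), SMN2 input 2 (0.0534), SMN2 pulldown 1 (0.0577), WRAP53 input 1 (0.0608), WRAP53 input 2 (0.0730) or WRAP53 pulldown 2 (0.238), with no filter on low counts (0.0578) and with the replicate number as a block (0.0572). Without NPAT input 2 the single NPAT input left held 0 reads of RNU11, and the p of that fit carries no information.

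**Figure D3:**
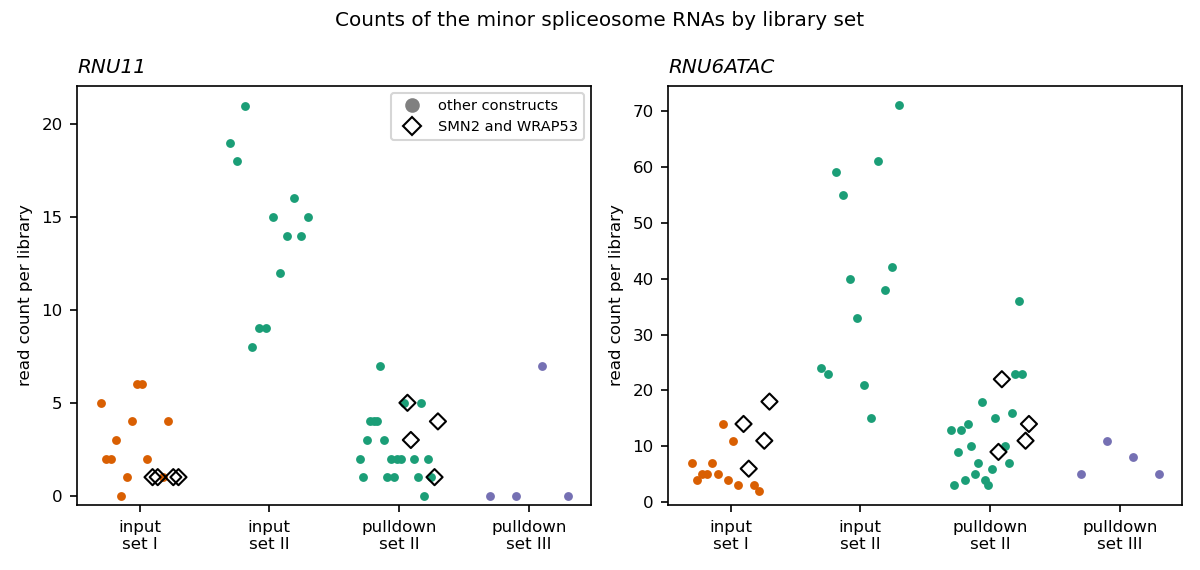
Reads of RNU11 and RNU6ATAC per library (vertical axis) by fraction and library set; points are spread sideways only to be seen, and diamonds are the SMN2 and WRAP53 libraries. Set II inputs hold 8 to 21 reads of RNU11 and 15 to 71 of RNU6ATAC, set I inputs hold 0 to 6 and 2 to 18, and the SMN2 and WRAP53 pulldowns lie among the other pulldowns.

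RNU11 fell in SRSF7, with 14 and 15 input reads and 2 and 1 pulldown reads (edgeR adjusted p = 0.00525), where the ratio of pulldown to input was 0.100 (0.0196 to 0.324). It also fell in PML, with 15 and 12 against 1 and 2 reads, and in SRSF1, with 14 and 16 against 5 and 0 (edgeR adjusted p = 0.0253 and 0.0303). These 3 constructs have inputs in set II, which held 8 to 21 reads, against 0 to 6 in set I inputs and 0 to 7 in pulldowns. RNU11 passed the filter on low counts through set II inputs alone, the high side of these falls. The p-values of these falls are therefore no independent support. In GFP it was called lower with 2 and 3 input reads and 0 in both pulldowns (edgeR adjusted p = 0.0144), but both fractions were at or under 3 reads per library and no fold is given. NPAT ran the other way, with 0 and 1 input reads and 7 and 3 pulldown reads, a ratio of 8.07 (1.15 to 350) that was not called (edgeR adjusted p = 0.0581).

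RNU6ATAC, whose RNA takes the place of U6 at the catalytic centre, showed no difference for SMN2 and WRAP53. It had 14 and 6 reads in the SMN2 inputs and 9 and 22 in the pulldowns, and 11 and 18 in the WRAP53 inputs and 11 and 14 in the pulldowns. The difference from the 9 body constructs was 0.46 ± 0.51 (edgeR adjusted p = 0.586) and from the 5 of the same sets -0.20 ± 0.58 (edgeR adjusted p = 0.909). The summed ratio of pulldown to input was 0.952 (0.637 to 1.43) for SMN2 and WRAP53, 0.503 (0.425 to 0.595) for the other 9 and 1.12 (0.788 to 1.60) for the 5 of the same sets. Over single constructs it fell in LMNA, from 59 and 55 to 8 and 5 reads (-2.87 ± 0.62, edgeR adjusted p = 0.000169), and in NLS, from 40 and 33 to 4 and 14 reads (-1.99 ± 0.61, edgeR adjusted p = 0.0145). Its estimate was above 0 in 5 constructs with no call, the highest being SP100 with 3 and 2 input reads and 10 and 7 pulldown reads (1.18 ± 0.89).

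Set against the median of the U4 and U5 genes of the same construct, the 2 minor RNAs with reads did not behave alike, as a description with no test. RNU6ATAC lay above that median in 14 of 14 constructs, and RNU11 above it in 9 and below it in 5 (SRSF7, PML, SP100, GFP and FLAG). The mean of RNU11 and RNU6ATAC minus the median of the U4 and U5 genes averaged 2.31 on the log2 scale for SMN2 and WRAP53 and 1.09 for the 9 other body constructs. Most of that gap came from RNU11, whose SMN2 and WRAP53 inputs held 1 read each. RNU11 alone lay at 3.00 in SMN2 and 2.92 in WRAP53, and from -1.43 (PML) to 4.43 (NPAT) in the other 9. RNU6ATAC alone lay at 1.80 and 1.51, inside its range of 0.26 (LMNA) to 3.04 (FBL) in those 9. By construct the mean of the 2 minor RNAs minus that median was 3.01 for NPAT, 2.40 for SMN2, 2.22 for WRAP53, 2.16 for FBL, 2.05 for SAM68, 0.62 for SP100 and 0.31 for RNPS1, which have set I inputs and set II pulldowns. It was 1.31 for NLS, 0.82 for SRSF1, 0.30 for FLAG, 0.14 for SRSF7 and -0.15 for PML, which lie in set II throughout, and 0.82 for LMNA. No such value is given for GFP, whose pulldowns held 0 reads of RNU11. Of the 5 constructs of the same sets NPAT lay above SMN2 and WRAP53, with 0 and 1 input reads of RNU11 and an odd input, and the other 4 lay below them. With the U5 genes left out of the major group the averages were 2.35 and 1.24.

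Against the 3 references, RNU11 was again the member called higher for SMN2 and WRAP53 (3.95 ± 1.08, edgeR adjusted p = 0.0102), beside 10.9% of all genes. This comparison shares its SMN2 and WRAP53 libraries with the one above. The GFP pulldowns held 0 reads of RNU11, so the fitted size depends on how a count of 0 is treated and is no bound. Between set II pulldowns alone the RNU11 difference was -0.15 ± 0.66 (edgeR adjusted p = 0.927), and without WRAP53 pulldown 2 the call was lost (3.4, edgeR adjusted p = 0.0822). The U4 and U5 genes lay between -0.38 and 0.32, and RNU6ATAC at 0.71 ± 0.60, with no call. SMN2 and WRAP53 were also compared with each other: edgeR called 0 of 6 members and 0 of 23681 genes (0%), with 0 members and 943 genes at an unadjusted p under 0.05, and DESeq2 called 0 members and 0 genes.

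**Figure D4:**
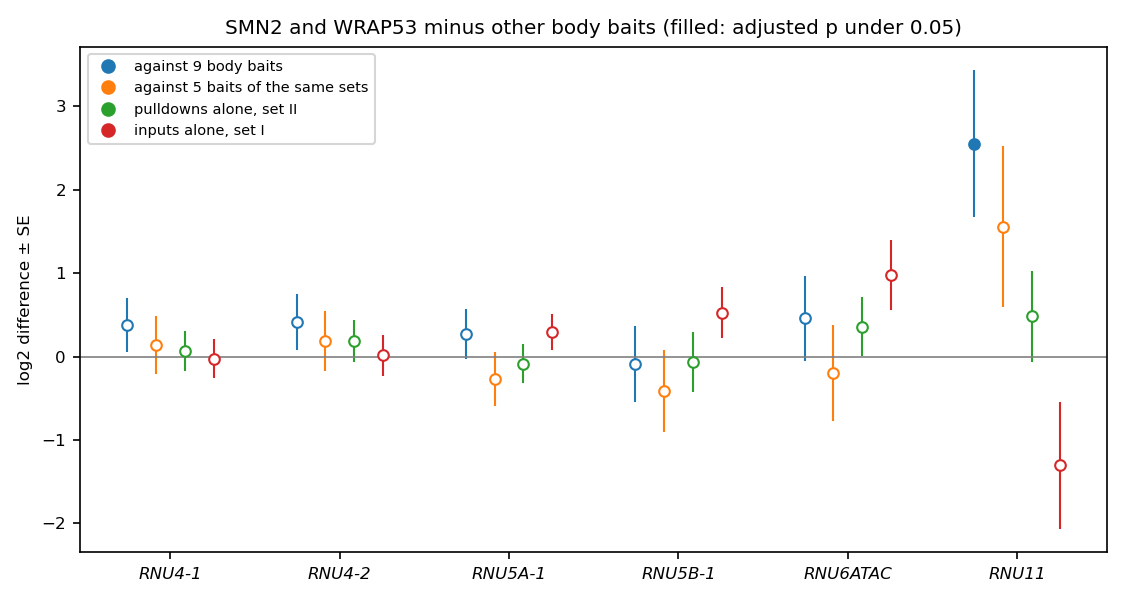
Log2 difference of SMN2 and WRAP53 minus other body constructs (vertical axis, bars ± SE, filled where the adjusted p is under 0.05) for the 6 members with reads. Colours are pulldown over input against all 9, the same against the 5 of the same library sets, pulldown levels alone and input levels alone; RNU11 against all 9, at 2.55, is the filled point, and it is at 1.56 against the 5.

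Against NLS, the nuclear reference, 5 of 66 pairs of member and body construct were higher and 0 lower (edgeR, with 0 lower at an unadjusted p under 0.05). DESeq2, which gave an adjusted p for 48 of the 66 pairs, called 0 lower. All 11 comparisons share the NLS libraries. RNU5A-1 was higher for SP100 (2.45 ± 0.56, edgeR adjusted p = 0.0170), NPAT (2.20 ± 0.54, 0.0160), WRAP53 (1.63 ± 0.53, 0.0476) and SAM68 (1.56 ± 0.57, 0.0478), and RNU6ATAC for SAM68 (2.79 ± 0.94, 0.0299). The share of all genes called higher was 11.7% for SRSF7, 13.6% for SRSF1, 4.69% for RNPS1, 12% for SAM68, 0.0633% for PML, 0.481% for SP100, 1.15% for NPAT, 0.431% for FBL, 7.06% for LMNA, 4.23% for SMN2 and 5.24% for WRAP53. RNU4-1 and RNU4-2 had estimates above 0 in all 11, from 0.21 to 2.11 and from 0.21 to 2.09, with no call.

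The pulldowns alone did not show these differences. RNU5A-1 had 4.40 and 4.73 CPM in the NLS inputs and 0.648 and 0.547 CPM in the NLS pulldowns. In SP100 it had 1.53 and 0.813 CPM in inputs and 0.584 and 1.05 CPM in pulldowns, in NPAT 1.82 and 1.38 against 1.16 and 0.732 CPM, and in SAM68 1.91 and 1.40 against 0.704 and 0.599 CPM. The NLS inputs lay above all of these inputs, and the NLS inputs are in set II while the others are in set I. Between set II pulldowns alone 0 of 60 pairs were called, and the RNU5A-1 differences from NLS were 0.44 for SP100, 0.67 for NPAT, 0.61 for WRAP53 and 0.11 for SAM68. Among constructs whose libraries all lie in set II, fitted alone, PML differed from NLS in each of the U4 and U5 genes, by 1.21 ± 0.40 for RNU4-1, 1.23 ± 0.32 for RNU4-2, 1.80 ± 0.50 for RNU5A-1 and 1.68 ± 0.39 for RNU5B-1 (edgeR adjusted p = 0.0399, 0.0131, 0.00986 and 0.00238), in a fit that called 15.8% of all genes higher for PML. These were the 4 called of 18 pairs in that fit, and the other constructs in it, SRSF7 and SRSF1, had 23% and 27.4% of all genes called higher.

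The count against NLS moved with single libraries. Without their odd inputs FBL and NPAT keep 1 input library each, so only sizes are given for that fit. RNU4-1 was then at 2.21 ± 0.32 for SP100, 1.40 ± 0.31 for SMN2 and 1.15 ± 0.31 for WRAP53. In the fit of all libraries these were 2.11 ± 0.60, 1.40 ± 0.58 and 1.20 ± 0.58, with no call. Leaving out NLS input 1 left 0 pairs called, leaving out NLS input 2, NLS pulldown 1 or NLS pulldown 2 left 1, and leaving out SAM68 input 2 or SAM68 pulldown 2 left 3.

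The mRNAs of the snRNA assembly machinery were compared between SMN2 and WRAP53 and the 9 other body constructs, again as pulldown over input and beside 12.5% of all genes called in each direction. SMN2 and WRAP53 have set I inputs, whereas SRSF7, SRSF1, PML and LMNA among the 9 have set II inputs. No within-set values are given for the gene lists here and below, and what the sets contributed was not tested. Of 17 tested genes of the SMN complex and snRNA assembly, 7 were higher and 1 lower, with a median of 0.26 against 0.00 over all genes. GEMIN5, which recognises snRNAs for the SMN complex, was higher by 0.50 ± 0.09 (edgeR adjusted p = 0.000131), as were GEMIN4 by 0.42 ± 0.10 and GEMIN2 by 0.34 ± 0.09. GEMIN8, which tethers other members of the complex, was lower than in the other constructs by 0.44 on the log2 scale (edgeR adjusted p = 0.000690). Of 23 snRNP protein genes 10 were higher and 0 lower, with a median of 0.22. The U5 proteins EFTUD2 (0.50), PRPF8 (0.80) and SNRNP200 (0.67), and SNU13 (0.44), which binds U4 RNA, had the smallest adjusted p. Against their own inputs, the 17 assembly genes had medians of 0.05 in the SMN2 pulldown and 0.02 in the WRAP53 pulldown with no edgeR call in either, and 5 of the 23 snRNP protein genes were lower in each (medians -0.18 and -0.14). The assembly genes were lower in several of the constructs they were compared with, 10 of 17 in SRSF7, 11 in SRSF1, 9 in RNPS1 and 9 in LMNA.

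Genes of the minor spliceosome proteins differed both ways in the same comparison of constructs. Of 13 tested, 2 were higher and 4 lower, with a median of 0.04. RNPC3, which bridges U11 and U12, was lower (-0.97 ± 0.18, edgeR adjusted p = 0.000134), as were SNRNP35 of the U11 particle (-0.40) and ZRSR2, which reads the end of minor introns (-0.36). PDCD7 of the U11/U12 particle was higher (0.50 ± 0.13, edgeR adjusted p = 0.00268). Against their own inputs, 2 of these 13 genes were lower and 0 higher in the SMN2 pulldown, and 0 were called in the WRAP53 pulldown. Of 24 genes of snRNA transcription and 3′-end processing, 4 were higher and 5 lower, with a median of -0.01. INTS5 of the Integrator complex, which cuts snRNA precursors, was higher (0.83 ± 0.12, edgeR adjusted p = 5.93e-06), and INTS6 of the same complex (-0.37), SNAPC5 (-0.47) and ZC3H8 (-0.51) were lower. Against their own inputs, 4 of the 24 were lower and 2 higher in the SMN2 pulldown, and 3 lower and 1 higher in the WRAP53 pulldown. These differences between constructs therefore depend also on the constructs compared with.

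Of the 27 other tested snRNA rows 1 was lower and 0 higher, out of 1606 such rows of which 1216 were at 0 in every library. The row called was the U1 variant RNVU1-27 (-0.54 ± 0.14, edgeR adjusted p = 0.00354), and RNU1-1 had -1.97 ± 0.85 with no call (edgeR adjusted p = 0.0868). The genes whose spans hold members showed no call, at -0.07 for SIRT4, -0.04 for WDR74 and 0.08 for CLASP1 (edgeR adjusted p = 0.915, 0.831 and 0.681).

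Among 12229 other genes with a mean of 5 CPM or more, the 5 whose 14 log2 differences were most like the mean of the members were GPBP1L1 (Pearson r = 0.872), MKRN1 (0.870), POLR1B (0.854), STARD7 (0.853) and SENP2 (0.846). All are protein-coding genes, and their own median differences lay between -0.07 and 0.11, far smaller than those of the U4 and U5 genes. The mean of the members includes RNU11, with 0 reads in both GFP pulldowns and 0 and 1 in the NPAT inputs. These 5 genes were picked as the highest of 12229 over 14 constructs, so their r is no test. They were counted in the same libraries as the members.

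In the second table the members were far lower in poly(A)-selected than in ribosome-depleted SRSF7 pulldown RNA. As background, mature snRNAs carry no poly(A) tail. Of 5 tested members 5 fell (edgeR), with a median log2 difference of -3.63 against 0.03 over all genes, and 26.5% of 18641 genes were called lower. RNU4-2 had 24 and 25 reads after poly(A) selection and 389 and 290 after ribosome depletion (-3.63 ± 0.23, edgeR adjusted p = 1.43e-12). RNU4-1 had 2 and 9 reads against 171 and 102 (-4.45 ± 0.44). RNU5A-1 had 3 and 2 reads against 31 and 27, and RNU5B-1 had 1 and 4 against 33 and 35. RNU6ATAC had 0 reads in both poly(A) libraries against 23 and 24 (edgeR adjusted p = 8.08e-06), and RNU11, with 1 read in the 4 libraries together, was not tested. Of 10 other snRNA rows tested there 9 fell, with a median of -5.33.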

How the data were processed

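Deposited read counts per gene, made by the authors with STAR 2.7.4a and featureCounts on hg38 per the submitters' processing notes, were used as whole numbers. Annotation and strand setting: not given in the sources used here. Per the labels' protocols, RNA was bound to RNeasy plus columns, input was taken from the eluate before streptavidin pulldown, and pulldown RNA was released with TRI Reagent. How well short RNAs pass these steps was not tested. Of 60591 rows, 1 that names no gene was left out. No depth other than the total counts was used.

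In R 4.3.3, edgeR 4.0.16 fitted all 56 libraries of the first table (filterByExpr, TMM scaling, trended dispersion, robust quasi-likelihood, 28 residual degrees of freedom, two-sided tests, Benjamini-Hochberg over 23681 genes, threshold 0.05), with 1 mean per construct and fraction. The 4 libraries of the second table had their own fit (2 residual degrees of freedom). SE is the absolute log2 difference over the square root of F. Intervals of count ratios are exact at 95% and cover counting error only. DESeq2 1.42.0, other scalings and filters, a replicate block, library sets and left-out libraries were alternatives. Scripts were tested on simulated data. Replicate numbers did not pair the libraries: pulldown and input deviations of the same number correlated at -0.08 to 0.08 over 14 constructs. The closest replicates, the GFP inputs, differed by more than sampling noise (chi-square per degree of freedom 1.30). Library sets were read from pseudogene counts.

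The members, lists and alternatives were chosen with earlier results of these data known. Named genes are the 9 members, genes whose spans overlap them, up to 4 genes of each list with the smallest adjusted p, and the 5 genes most like the members over constructs. Gene positions come from RefSeq (GRCh38.p14).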

Additional observations from a re-analysis of the deposited data

Results flagged for a closer look

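The difference of RNU11 between constructs passed its test in both comparisons of SMN2 and WRAP53, at 2.55 on the log2 scale against the 9 other body constructs and at 3.95 against the 3 references, from inputs of 1 read each. Against NLS, RNU5A-1 differed by 1.56 for SAM68, 2.45 for SP100, 2.20 for NPAT and 1.63 for WRAP53, and RNU6ATAC by 2.79 for SAM68. Each of these 7 values is a tested difference between the pulldown-over-input values of separate constructs (edgeR, adjusted p under 0.05), and each compares, at least in part, set I inputs with set II inputs. What the library sets contributed was not tested beyond the within-set values given above.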

How the results depend on the processing

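The 51 pairs lower in pulldown counted 48 to 54 when each library was left out, 25 of 28 with a mean of 5 CPM or more, and 27 of 30 in constructs whose libraries lie in 1 set. For the left-out libraries, the 25 of 28 and the 27 of 30, the share of all genes called lower was not counted. Scaling by DESeq2's size factors or by total counts added a call of RNU11 as higher in NPAT. The single member called for SMN2 and WRAP53 against the 9 body constructs, RNU11, became 0 with a mean of 5 CPM or more (RNU11 and 3 other members are then not tested), with the replicate block, with DESeq2 (which gave RNU11 no adjusted p), against constructs of the same sets, between pulldowns alone and between inputs alone (where RNU11 reversed to -1.31), and 0 to 1 when each library was left out. Against the references it became 0 with that mean CPM, with DESeq2 and between pulldowns alone (RNU11 reversed to -0.15), and 0 to 1 with left-out libraries. Against NLS the 5 calls became 2 with total counts, 22 with no filter, 2 of 22 with a mean of 5 CPM or more, 10 with DESeq2 and 0 between pulldowns alone. The count also moved without the odd FBL and NPAT inputs and with other left-out libraries, in fits that leave 1 library in a group. DESeq2 gave an adjusted p for 5 of 6 members against the references and for 48 of 66 pairs against NLS. The share of all genes called higher against NLS ran from 0.0591% (PML) to 16.3% (SRSF1) with total counts. From PML to SRSF1 it ran from 0.179% to 5.9% with no filter, 0.629% to 27.5% with that mean CPM and 3.19% to 18.6% with DESeq2. With no filter RNU11 lost its call against the 9 body constructs (2.58, edgeR adjusted p = 0.0578) while RNU4-2 gained one, so that the count stayed at 1. The causes were not tested. SMN2 against WRAP53 gave 0 to 0 and poly(A) 5 to 5 with left-out libraries, and the minor-minus-major averages ranged from 1.99 to 2.51 for SMN2 and WRAP53 and from 0.791 to 1.25 for the other 9. The averages for SMN2 and WRAP53 include RNU11, with 1 read in each of their inputs. Total-count scaling moved the median of all genes by -0.43 to 0.30 on the log2 scale.

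With the replicate number as a block, 53 pairs were called in pulldown over input, 0 members for SMN2 and WRAP53 against the 9 body constructs (RNU11 2.59, edgeR adjusted p = 0.0572), 1 against the references, 5 against NLS, 0 for SMN2 against WRAP53 and 5 for poly(A), and the minor-minus-major averages were 2.27 and 0.975. The share of all genes called lower in pulldown over input was not counted for that fit. It called 10.2% of all genes higher against the references and from 0.0169% (PML) to 12.9% (SRSF1) higher against NLS. The numbers did not pair the libraries. Low counts limit RNU11, with 282 reads over 56 libraries, and RNU6ATAC, with 925.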

Other observations

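The U4 genes kept unequal shares. RNU4-2 had 1.27 to 2.18 times the count of RNU4-1 in the 28 inputs (median 1.78) and 1.55 to 2.81 times in the 28 pulldowns (median 1.92). The mean ratio was higher in the pulldown in 14 of 14 constructs, and the fractions did not overlap in 8. These counts describe 2 libraries per group, and no test was made of them. For RNU5B-1 over RNU5A-1 the median ratio was 0.906 in inputs and 0.884 in pulldowns, and the pulldown mean was higher in 7 of 14.

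Rows listed at 0 in every library were common among short noncoding genes that overlap another gene. Of 409 small nucleolar RNA rows whose span overlaps another gene in RefSeq, 403 were at 0 everywhere (98.5%), against 8 of 20 without an overlap. Among snRNA rows 6 of 12 with an overlap and 9 of 29 without were at 0. RNU4-1, RNU4-2, RNU11 and RNU6ATAC overlap another gene and were counted, and RNU12 overlaps none and was at 0.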
